A study of Mus musculus with 2 samples.

Results

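The genes of the mitochondrial respiratory chain were compared in hair follicles of wild-type and dnFGFR2-IIIb transgenic mice. FGFR2-IIIb is the splice form of fibroblast growth factor receptor 2 found in epithelia, and dnFGFR2-IIIb is the altered form of it that the transgene encodes. Members were taken by gene symbol: those beginning with Ndufa, Ndufb, Ndufs or Ndufv but not Ndufaf (complex I), Sdh followed by a to d (complex II), Uqcr (complex III), Cox4 to Cox8 (complex IV) and Atp5 (complex V). The rule found 84 of the 18193 genes with a symbol of their own on the array, namely 34 for complex I, 8 for complex II, 8 for complex III, 17 for complex IV and 17 for complex V. Each gene was read from its brightest probe set, by the mean of both arrays. A symbol rule also takes in genes that are not structural subunits: Sdhaf1, Sdhaf2, Sdhaf3 and Sdhaf4 encode assembly factors of complex II, and Ndufa4l2 encodes a relative of NDUFA4. NDUFA4 itself, named as a complex I protein, is now regarded as a subunit of complex IV.

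There was 1 Affymetrix Mouse430_2 array per group. The wild-type array held RNA of pooled follicles from wild-type animals, and the other held RNA of pooled follicles from dnFGFR2-IIIb transgenic animals, with no treatment named for either. Both pools were of postnatal day 10 and had about 300 follicles, to which each of 3 mice of separate litters had given about 100. The sources used here name neither the promoter of the transgene nor the strain of the mice. With 1 array per group there is no replicate check and no p-value, and every difference below is between these 2 arrays. The pools also differed in sex-linked RNA, as given below with the X-linked members.

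The respiratory chain sits in the inner mitochondrial membrane. Complex I takes electrons from NADH and complex II takes them from succinate, both hand them to ubiquinone, and complex III passes them by way of cytochrome c to complex IV, which reduces oxygen. The proton gradient that complexes I, III and IV build drives ATP synthesis by complex V. Most subunits are encoded in the nucleus, which is the part measured here, and their genes are known targets of the nuclear respiratory factors NRF-1 and GABP, an ETS family factor. In mouse skin, loss of the mitochondrial transcription factor TFAM from the epithelium is known to impair hair follicle growth.

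The promoters of these genes, taken from 250 bases before to 50 bases after the start of transcription in RefSeq (build GRCm38.p6), were searched on both strands for the palindromic core of the NRF-1 motif, spelled out by the capitals in Uqcrc1 below, and for CCGGAAG, an ETS core. No match of one overlapped a match of the other. A promoter was listed for 69 of the 84 genes. The NRF-1 letters were found for 4 of these (5.8%), against 1.07% of all 27025 genes in the table, and the ETS letters for 20 (29%), against 9.93%. All genes here include those that make no protein. A stretch of 60 bases is shown for at least 1 gene of each complex that holds such letters, on the strand of the gene, with the matched letters in capitals. The stretches lie at chr2:90904702-90904761 (Ndufs3, minus strand), chr4:140961250-140961309 (Sdhb, plus strand), chr9:108936638-108936697 (Uqcrc1, plus strand), chr5:115349086-115349145 (Cox6a1, minus strand), chr5:108434415-108434474 (Atp5k, minus strand) and chr15:102671055-102671114 (Atp5g2, minus strand).
Ndufs3: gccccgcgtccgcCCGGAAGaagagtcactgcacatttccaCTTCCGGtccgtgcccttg
Sdhb: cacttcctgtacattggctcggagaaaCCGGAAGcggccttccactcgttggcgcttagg
Uqcrc1: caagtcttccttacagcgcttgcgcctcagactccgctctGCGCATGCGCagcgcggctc
Cox6a1: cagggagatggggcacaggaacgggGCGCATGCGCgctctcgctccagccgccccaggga
Atp5k: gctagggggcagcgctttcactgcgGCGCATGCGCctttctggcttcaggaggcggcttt
Atp5g2: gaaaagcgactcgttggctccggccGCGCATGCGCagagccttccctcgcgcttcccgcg
Ndufs3 carries the ETS letters on either strand, and the other genes shown carry 1 match in the stretch. The matched letters begin 42 bases before the start in Atp5g2, 50 in Atp5k and 162 in Cox6a1, and 30 bases after it in Uqcrc1. The 4 genes with the NRF-1 letters had a median log2 ratio of transgenic over wild-type signal of -0.12, and the 62 genes with a listed promoter without these letters and with both signals above the floor had -0.13. A match describes the letters and says nothing about binding of a factor in these follicles.

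As a group, respiratory chain genes read slightly lower on the transgenic array, and none was far apart. Signals are in arbitrary units after scaling both arrays to the same trimmed mean, and the floor, under which a signal was not used for a ratio, was 10.5. Both signals exceeded the floor for 80 of the 84 genes, and the other four were Ndufb4, Ndufa4l2, Cox7b2 and Cox8b. The ratio was under 1 for 62 of the 80 (77.5%), against 50.1% of the 11566 genes of the whole array that passed the floor both times, and the median log2 ratio was -0.10 against 0.00. The log2 ratios ran from -0.66 to 0.49, and 0 of the 80 were at least 2-fold apart, where 3.18% of all genes were (1.6% higher and 1.58% lower). At 1.5-fold, 2 were lower and 0 higher, where 6.78% of all genes were lower and 6.36% higher, together 13.1%. Few genes this bright pass: of the 1011 genes with a mean signal over 1000, 2.77% were 1.5-fold apart. In that class 61.2% had a ratio under 1 and the median log2 ratio was -0.04, while 50 of the 62 respiratory chain genes in it (80.6%) had one, at a median of -0.09. The difference of the group from the rest of the genes is thus smaller when it is read among bright genes.

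**Figure D1:**
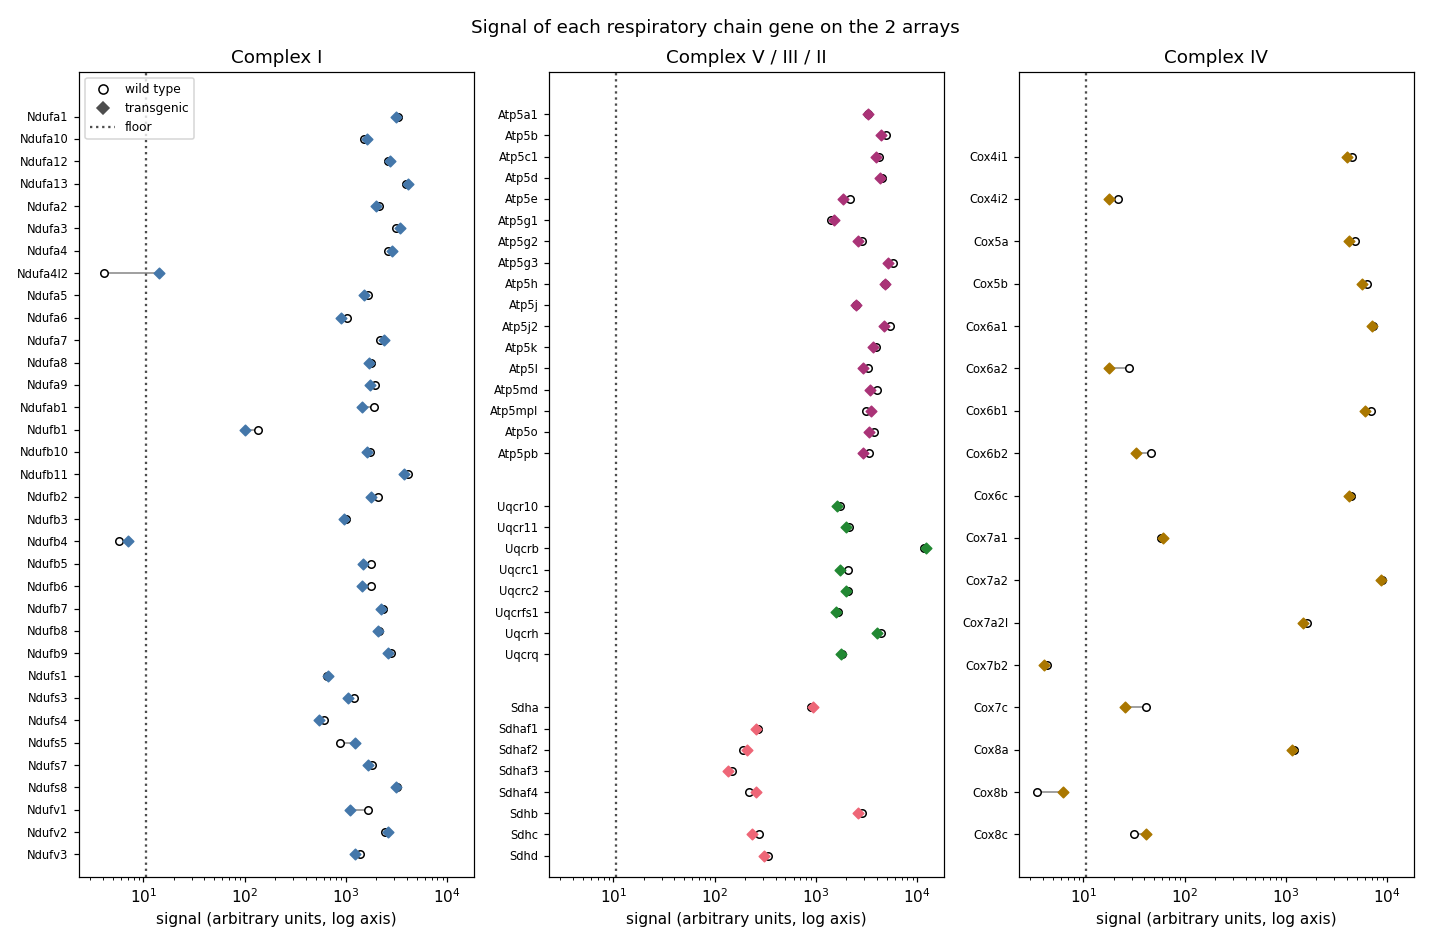
Signal of each of the 84 genes on the wild-type array (open circles) and the transgenic array (filled diamonds), in arbitrary units on a log axis, by complex; the dotted line is the floor of 10.5. The pairs of symbols lie close together for most genes, and the genes near the floor are mainly the tissue-restricted isoforms of complex IV.

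The size of these ratios has to be set against the technical spread. Where a respiratory chain gene had several probe sets with a mean signal over 200, their log2 ratios varied around the gene's mean with an SD of 0.15 (83 probe sets of 34 genes), against 0.18 for all such genes on the array. Of the 71 members with a mean signal over 200, 45 had a log2 ratio within 1 SD of 0. Ndufv1 and Ndufab1 lay below -0.29 and Ndufs5 above 0.29, a distance of 2 SD. The SD covers differences between probes on the same 2 hybridisations, and leaves out those between mice, pools and labelling reactions.

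The sign of the group's median depended on the scaling, while its position below the median of all genes did not in any of the scalings run. With equal spiked hybridisation controls the median of all genes was 0.19 and that of the respiratory chain was 0.09, so that only 20% of its genes had a ratio under 1. With equal medians, which put all genes at -0.14, the respiratory chain stood at -0.24. Relative to all genes, the difference was -0.10 with equal trimmed means, -0.11 with equal medians and -0.10 with equal spiked controls. It was smaller with the intensity-dependent scalings, at -0.04 with quantile normalization and -0.04 with loess.

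**Figure D2:**
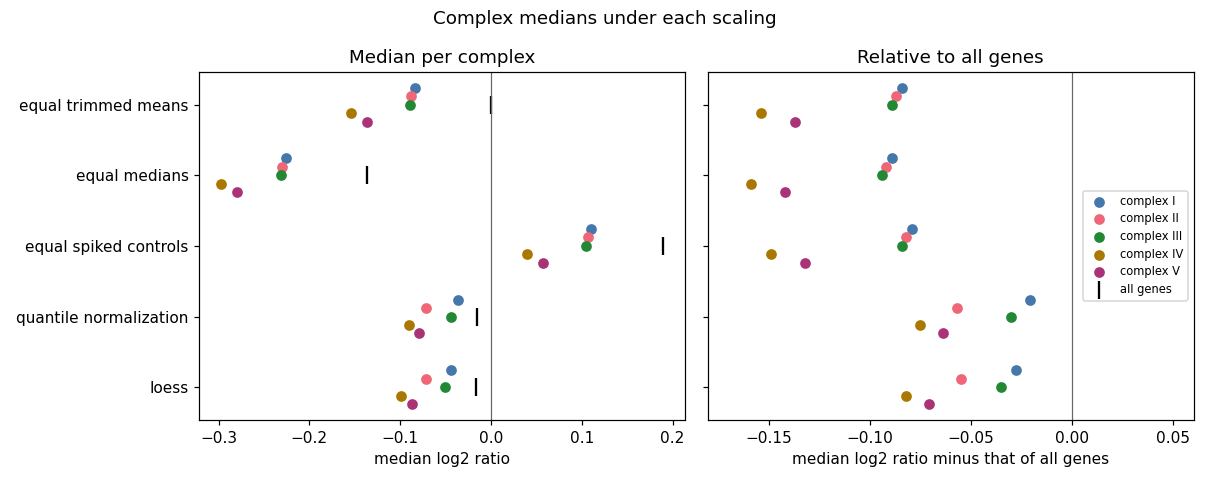
Median log2 ratio (transgenic over wild type) of each complex under 5 scalings, as such on the left, with the median of all genes as a black bar, and minus the median of all genes on the right. Each complex median is left of the all-gene median in the 5 scalings, and the distance is smaller with quantile normalization and loess.

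Complexes IV and V had the lowest medians, and complexes I, II and III, with complex II taken as the symbol rule gives it, were closer to all genes. The median log2 ratio was -0.08 for complex I (23 of 32 genes with a ratio under 1), -0.09 for complex II (5 of 8), -0.09 for complex III (7 of 8), -0.15 for complex IV (13 of 15) and -0.14 for complex V (14 of 17). The middle 50% of the genes of complex I lay between -0.17 and 0.04 and those of complex V between -0.17 and -0.01, so the complexes overlapped broadly. Without the 4 assembly factors the median of complex II was -0.14, about that of complex V. No test of the difference between complexes was possible with these arrays. The order of IV and V turned when probe sets of a gene were averaged, when probe sets that can match several transcripts were left out, and with a lower or higher floor.

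**Figure D3:**
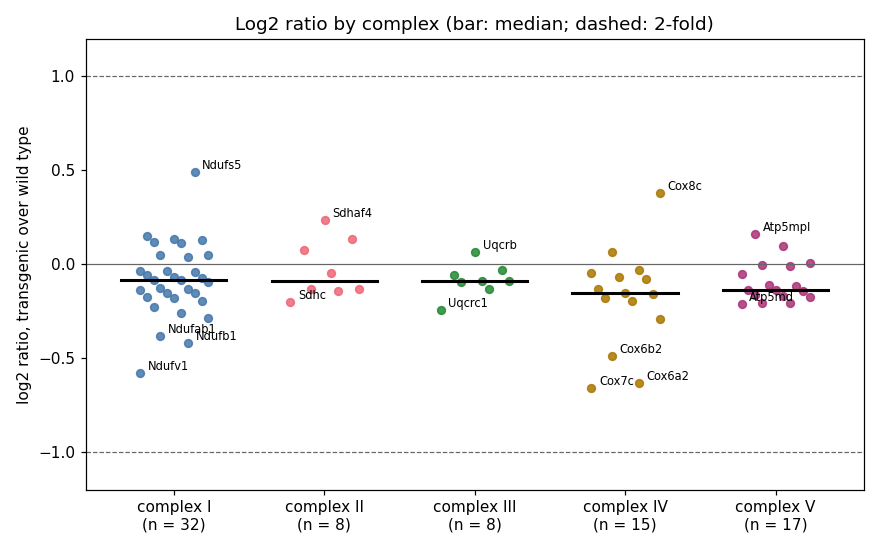
Log2 ratio of transgenic over wild-type signal for the 80 genes with both signals above the floor, by complex, with the median as a bar and 2-fold as dashed lines. The medians run from -0.08 for complex I to -0.15 for complex IV, and no gene reaches 2-fold.

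Complex I has an arm that protrudes into the matrix. This arm holds the N module, which oxidises NADH, and the Q module, which hands the electrons to ubiquinone. The genes of the N module split between both directions. Ndufv1, which encodes the flavoprotein that binds NADH, read 1652 in wild-type and 1106 in transgenic follicles, a log2 ratio of -0.58, which was the lowest of complex I. Its other probe sets went the same way, with 1332 and 938 (-0.51) and with 1486 and 1264 (-0.23), so the size differed between probe sets but not the side. Ndufv2, the partner of NDUFV1, read 2425 and 2626 (0.12), and 0.36 and 0.01 at its other probe sets. Ndufs1, the largest iron-sulfur protein of the complex, read 648 and 666 (0.04). The median of the 9 genes of the N module was -0.07, and 5 of them had a ratio under 1. Its accessory subunit Ndufs4 read 603 and 542 (-0.15), and far dimmer probe sets of this gene gave -0.30, 0.28 and 0.71. Ndufa7, of the same module, read 2171 and 2387 (0.14), with at most 0.03 at 4 further probe sets.

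The 4 genes assigned here to the Q module all had a ratio under 1, and 1 of them with equal spiked controls. They were Ndufs3 (1186 and 1037, -0.19), Ndufa5 (1639 and 1490, -0.14), Ndufs7 (1800 and 1640, -0.13) and Ndufs8 (3186 and 3099, -0.04). Ndufs8, an iron-sulfur subunit, depended on the probe set. That with nearly the same mean signal read 3139 and 3140, and a dimmer one read 620 and 612 (-0.02). Others read 3503 and 2509 (-0.48) and 916 and 706 (-0.38). Ndufa5 also had a probe set on the other side, with 767 and 802 (0.06). The core subunits of complex I, which are conserved from bacteria, had a median of -0.09 over 6 genes, and the accessory subunits had -0.09 over 25.

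The membrane arm of complex I (P module), which pumps protons, is represented by accessory subunits. The 18 genes above the floor that were assigned to it here had a median of -0.08, with 14 ratios under 1. Ndufa9 (1938 and 1740, -0.16) and Ndufab1 were counted among them, and not with the matrix arm. Ndufb1 read 134 and 100 (-0.42), with no further probe set. Ndufab1, the mitochondrial acyl carrier protein, which also serves fatty acid synthesis, read 1880 and 1441 (-0.38). Another probe set of its own went the other way, from 193 to 268 (0.47). The probe set it shares with a pseudogene read 708 and 613 (-0.21), and 2 dim ones gave -0.59 and -0.40. Ndufb6 (1753 and 1439, -0.28), Ndufb5 (1766 and 1474, -0.26) and Ndufb2 (2048 and 1750, -0.23) followed, and their other probe sets above the floor gave ratios under 1 as well.

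At the other end of complex I, Ndufs5 had the highest ratio of all 80 genes. This accessory subunit read 876 and 1233, a log2 ratio of 0.49. A probe set annotated to both Ndufs5 and a pseudogene of it read 1408 and 1099 (-0.36), so the 2 measurements disagreed in sign. Ndufa3 read 3099 and 3444 (0.15), with -0.06 at the next brightest probe set, and Ndufa12 read 2610 and 2699 (0.05), with -0.18 and -0.19 at its bright further ones. Ndufa4, regarded as part of complex IV, read 2599 and 2843 (0.13). Moving it there gave medians of -0.09 for complex I and -0.14 for complex IV. Its relative Ndufa4l2, known to be induced by low oxygen, read 4.10 and 14.3, the former under the floor and the latter no brighter than control probes without a target. Ndufb4 read 5.70 and 7.0 with its own probe set, but the probe sets that it shares with Ndufb4b and Ndufb4c read 2176 and 1896 (-0.20) and 1329 and 1439 (0.12).

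The X-linked members are both in complex I. Ndufa1 read 3262 and 3132 (-0.06) and Ndufb11 read 4129 and 3778 (-0.13), with -0.15 and -0.14 at its further probe sets. The pools differed in sex-linked RNA, as Xist read 352 and 1146 and the Y-linked gene Eif2s3y read 191 and 0.4. The part of this difference in the ratios given here was not tested.

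Complex II, succinate dehydrogenase, is the link to the citric acid cycle. Its flavoprotein gene Sdha read 897 and 945 (0.08), and the iron-sulfur subunit Sdhb read 2857 and 2611 (-0.13). The membrane anchors Sdhc and Sdhd read 272 and 236 (-0.20) and 337 and 305 (-0.14). The 4 structural genes had a median of -0.14, and 3 of them a ratio under 1. Further probe sets went against Sdha (482 and 425, -0.18) and Sdhc (146 and 215, 0.56), and no direction for the complex is carried by all of them. The assembly factors had a median of 0.04, from -0.13 for Sdhaf3 (147 and 134) to 0.24 for Sdhaf4 (216 and 255), with Sdhaf1 at 266 and 258 and Sdhaf2 at 189 and 208.

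Complex III, the cytochrome bc1 complex, had the narrowest range of the 5, with log2 ratios from -0.24 to 0.06. The core protein gene Uqcrc1 read 2054 and 1737 (-0.24), while its partner Uqcrc2 read 2091 and 1965 (-0.09). The hinge protein gene Uqcrh read 4343 and 3970 (-0.13), and Uqcr11 read 2131 and 1997 (-0.09). Uqcrfs1, which encodes the Rieske iron-sulfur protein, read 1636 and 1570 (-0.06), and Uqcrq read 1805 and 1767 (-0.03). Uqcrb read 11571 and 12084 (0.06), and its other probe set read 2106 and 1850 (-0.19). These signals are close to the array maxima of 13966 and 14815, and whether ratios are compressed near them was not tested. Cyc1 (cytochrome c1), a further subunit whose symbol falls outside the rule, read 2083 and 2092 (0.01).

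Several subunits of complex IV, cytochrome c oxidase, come as isoforms, of which some are broadly expressed and others restricted to muscle, lung or testis. The ratio of all 10 broadly expressed genes was under 1, and that of 1 of them with equal spiked controls, and their median was -0.14. They included Cox5a (4834 and 4226, -0.19), Cox6b1 (6872 and 6077, -0.18), Cox4i1 (4493 and 4021, -0.16), Cox5b (6267 and 5632, -0.15), Cox6c (4406 and 4205, -0.07) and Cox6a1 (7257 and 7098, -0.03). Cox7a2 read 8906 and 8630 (-0.05), Cox8a read 1206 and 1142 (-0.08), and Cox7a2l, which takes part in joining complexes III and IV, read 1617 and 1478 (-0.13). Bright further probe sets of these genes, where there were any, lay on the same side. Cox7c was the exception in signal: the brighter of its 2 probe sets with a symbol of their own read 41.1 and 26 (-0.66), the lowest ratio of all, at a level where probe sets of the same gene differ with an SD of 0.53.

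The restricted isoforms read near or under the floor, up to 60.8. The muscle isoforms read 28.1 and 18.1 for Cox6a2 (-0.63), 58.2 and 60.8 for Cox7a1 (0.06) and 3.50 and 6.30 for Cox8b, the latter under the floor. The testis isoforms read 46.2 and 32.9 for Cox6b2 (-0.49), 31.7 and 41.2 for Cox8c (0.38) and 4.4 and 4.1 for Cox7b2, which was also under the floor. Cox4i2, the lung isoform, read 21.8 and 17.8 (-0.29). Of 27 control probe sets that match no mouse RNA, the brightest read 8.5 and 15.8, so that Cox6a2 and Cox4i2 were little above background. With genes of a mean signal under 1000 left aside, which here are the restricted isoforms and Cox7c, the median of complex IV was -0.13. Of its ratios, 9 of 9 were under 1, against 61.2% of all genes with a mean signal over 1000. With equal spiked controls, the only broadly expressed gene with a ratio under 1 was Cox7c (-0.47), which is not among these.

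Of 12 skeletal muscle markers, 3 were above the floor on both arrays (Mylpf, Actn3 and Atp2a1), and 4 were above it only on the transgenic one: Acta1 (9.4 and 37.3), Myh1 (6.7 and 21.1), Myh4 (1.2 and 17.5) and Tnni2 (9.1 and 15.9). The other 5, the creatine kinase gene Ckm among them, lay under it on both. On the transgenic array the brightest control probe set without a target read 15.8, so that Myh4 and Tnni2 were little above background there. The summed signal of the muscle list was 169 and 234. Brown fat was looked for in the same way, and its defining gene Ucp1 read 1 and 3.1. The summed signal of 5 white fat markers was 7380 and 5231, nearly all of it from Fabp4 (7211 and 5108). The list was split, with Adipoq at 139 and 65.3, Cidec at 11.9 and 17.8, Retn at 12.9 and 13.4 and Lep at 4.6 and 26.7. In bulk follicles, fewer cells of a type and less RNA per cell cannot be told apart, and the part of these cells in the ratios of the respiratory chain was not tested. The hair shaft and inner root sheath markers were present on both arrays, with summed signals of 72710 and 75950 for 8 hair shaft keratins and 57830 and 57130 for 7 sheath genes. Of the other lists of cell types, epidermal markers summed to 248 and 423, and fibroblast and dermal papilla markers to 2135 and 2953. Melanocyte markers summed to 13110 and 11990 and Schwann cell markers to 109 and 64.6. Sebocyte markers summed to 1410 and 1230, of which Elovl3, listed for brown fat too, gave 1329 and 1158, and Mc5r 13.8 and 25.6. Immune markers summed to 57.3 and 137 and endothelial markers to 20.9 and 58.5, and these sums hold signals under the floor. Only 2 of 6 immune and 1 of 3 endothelial markers were above it on both arrays. Control probe sets that match no mouse RNA read up to 8.5 and 15.8, and the part of background in these faint sums was not tested. The ratio of 3' to 5' signal was 1.89 and 2.06 for beta-actin.

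Complex V, ATP synthase, is driven by a rotor of c subunits in the membrane and makes ATP in its F1 head. The F1 genes had ratios under 1 in 5 of 5 cases, and in 1 of 5 with equal spiked controls: the catalytic subunit gene Atp5b read 4965 and 4421 (-0.17), its partner Atp5a1 read 3283 and 3261 (-0.01), and the central stalk genes Atp5c1, Atp5d and Atp5e read 4202 and 3880 (-0.12), 4480 and 4329 (-0.05) and 2158 and 1869 (-0.21). In the peripheral stalk, Atp5pb read 3366 and 2915 (-0.21), with -0.01 at its other probe set, and Atp5o, the subunit that confers sensitivity to oligomycin, read 3707 and 3366 (-0.14), with -0.45 at a dimmer one. Atp5h (4805 and 4833, 0.01) and Atp5j (2465 and 2460, 0.00) read alike on both arrays at the probe sets used. The next brightest probe sets of Atp5h, Atp5a1 and Atp5d read 4542 and 4161 (-0.13), 2676 and 2420 (-0.145) and 2724 and 2432 (-0.16).

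The c subunit of the ring is encoded by 3 genes whose mature proteins are the same. Atp5g2 read 2835 and 2577 (-0.14), Atp5g3 read 5701 and 5168 (-0.14), and Atp5g1 went the other way, with 1419 and 1520 (0.10). None of these differences exceeded the SD between probe sets of a gene. Among the small membrane subunits, Atp5md, which helps to join ATP synthase dimers, had the lowest ratio of the complex, at 3958 and 3415 (-0.21), followed by Atp5j2 (5320 and 4717, -0.17), Atp5l (3238 and 2885, -0.17) and Atp5k (3923 and 3639, -0.11). Atp5mpl, a small subunit as well, had the highest at 3144 and 3519 (0.16).

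Probe sets that had not been chosen gave a like picture. Of the 49 further probe sets with a symbol of their own and a mean signal over 200, 41 had a ratio under 1, and their median was -0.13. Beside this, the ratio was under 1 for 50.1% of all genes and for 61.2% of those with a mean signal over 1000. These counts are for equal trimmed means, and the side of a ratio depended on the scaling as above. Of 34 genes with at least 2 such probe sets, 24 had ratios under 1 throughout, 1 (Ndufv2) had ratios over 1 throughout, and 9 were mixed: Atp5h, Ndufa12, Ndufa3, Ndufa5, Ndufa7, Ndufab1, Ndufs8, Sdha and Uqcrb. Probe sets of a gene read the same RNA on the same arrays, and are not independent of each other.

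**Figure D4:**
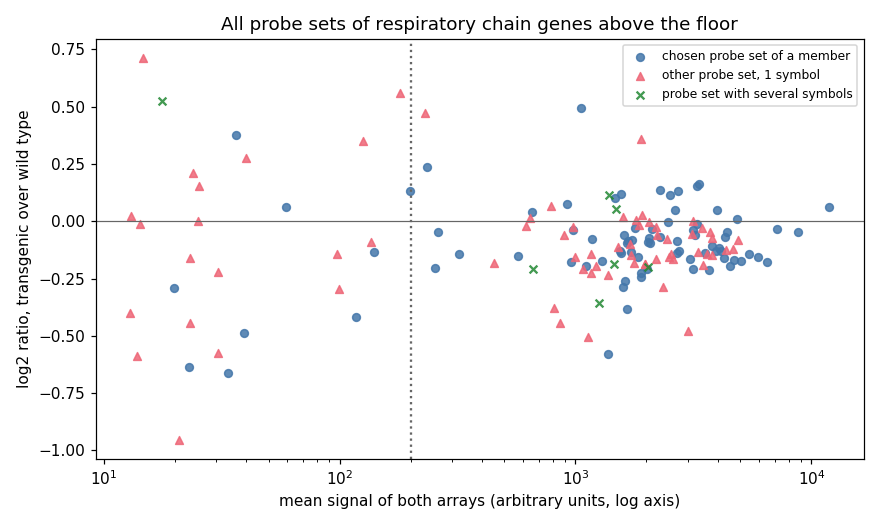
Log2 ratio (transgenic over wild type) against the mean signal of both arrays, on a log axis, for every probe set of a respiratory chain gene above the floor, whether chosen, not chosen, or annotated to several genes. Over a mean signal of 200 (dotted line) 110 of the 120 probe sets with a symbol of their own lie between -0.30 and 0.16, and under it the spread is wider.

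Other genes of the mitochondrion gave medians between -0.14 and -0.02. None of their lists held a gene at least 2-fold apart, where 3.18% of all genes were. The 43 assembly factors above the floor, 4 of which are the Sdhaf genes counted above, had a median log2 ratio of -0.05 (28 with a ratio under 1). With equal spiked controls the medians of these lists were over 0 as well, from 0.06 to 0.17. Farthest out were the complex I factors Ndufaf5 (80.6 and 42.8, -0.91), Ndufaf4 (253 and 418, 0.72) and Timmdc1 (42.8 and 70.0, 0.71). Of 20 genes for electron carriers and for dehydrogenases that feed ubiquinone, the median was -0.08 and 14 ratios were under 1. Prodh, proline dehydrogenase, read 127 and 79.6 (-0.67), Coq2, of ubiquinone synthesis, 292 and 201 (-0.54), Dhodh, of pyrimidine synthesis, 103 and 72.1 (-0.52), and cytochrome c (Cycs) 3538 and 3100 (-0.19).

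The genes that regulate the nuclear and mitochondrial share of the chain were near all genes, with a median of -0.02 over 20 genes. Twnk, the mitochondrial DNA helicase, read 125 and 201 (0.68), and Gabpa, the DNA-binding subunit of GABP, 138 and 108 (-0.35). Nrf1, for NRF-1, read 57.9 and 56 (-0.05), Tfam 268 and 246 (-0.13), and the coactivator Ppargc1a 24.8 and 30.5 (0.30). The citric acid cycle had a median of -0.06 over 18 genes, with Pcx, pyruvate carboxylase, at 54.3 and 27.8 (-0.97), Dlat at 198 and 147 (-0.42) and Pdhx at 94.7 and 79.2 (-0.26).

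Mitochondrial ribosomal proteins had a median of -0.06 (47 of 76 with a ratio under 1), with Mrpl47 at 341 and 481 (0.50), Mrpl41 at 1176 and 884 (-0.41) and Mrps18b at 441 and 334 (-0.40). Import genes had a median of -0.04 over 22 genes, with Timm17b at 659 and 523 (-0.33), Timm10b at 793 and 639 (-0.31) and Hspd1 at 1376 and 1655 (0.27). Carriers and channels of the membranes stood at -0.14 over 14 genes, with Slc25a10 at 209 and 289 (0.47), Slc25a1 at 372 and 287 (-0.37) and Mpc1 at 698 and 552 (-0.34). The phosphate carrier Slc25a3, which supplies ATP synthase, read 5669 and 4934 (-0.20), and the adenine nucleotide carriers Slc25a4 and Slc25a5 read 1276 and 1037 (-0.30) and 6449 and 6755 (0.07); these were chosen after their values were seen.

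Lists outside the mitochondrion served as a comparison. Glycolysis genes had a lower median than any complex, at -0.17 over 15 genes (0.02 with equal spiked controls), of which 13 had a ratio under 1. The glucose transporter gene Slc2a1 read 277 and 198 (-0.48), and the lactate dehydrogenase genes went opposite ways, Ldha with 3197 and 2344 (-0.45) and Ldhb with 258 and 401 (0.64). Cytosolic ribosomal proteins, another bright class, had a median of 0.00 over 42 genes, 22 of them with a ratio under 1, but -0.14 with equal medians (39 under 1), 0.06 with loess (6 under 1) and 0.19 with equal spiked controls (2 under 1). Their median signal on the wild-type array was 9350, where compression of ratios was not tested either. Farthest out were Rps27 (80.2 and 158, 0.98), Rps6 (371 and 194, -0.94) and Rpl12 (89.1 and 137, 0.62), all at probe sets far dimmer than that median signal. Shifts of the size seen in complexes IV and V were thus also present in other lists of energy metabolism, with no test of a difference between them.

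**Figure D5:**
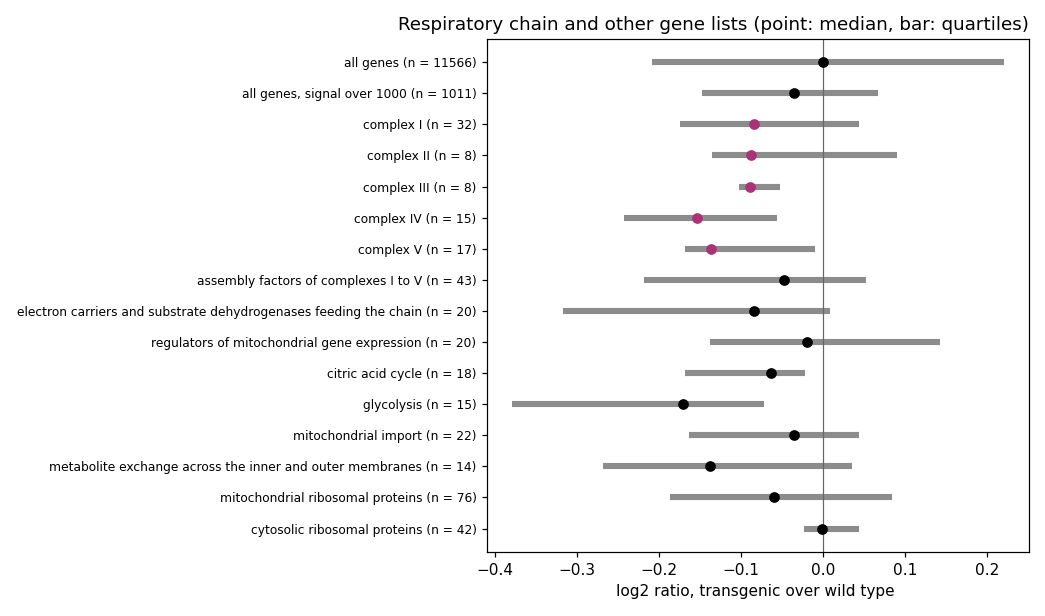
Median log2 ratio (points) and the quartiles over genes (bars) for all genes, all genes with a mean signal over 1000, the 5 complexes and 9 comparison lists, with the number of genes above the floor on both arrays. The complexes lie between -0.15 and -0.08, glycolysis at -0.17 and cytosolic ribosomal proteins at 0.00.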

How the data were processed

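RNA of pooled hair follicles was hybridised to 2 arrays, 1 per group. The authors deposited 1 linear intensity per probe set; per the values, each array had been scaled to a 2% trimmed mean of 100. The sources used here do not say how probes were summarised. Of 45101 probe sets, 64 controls were not used, and both arrays were rescaled to an equal 2% trimmed mean. The floor was the 40th percentile of both arrays (10.5). A gene was read from its brightest probe set with a symbol of its own, per the platform annotation of the array. Counts and medians were taken over genes with both signals above the floor, with no test, and beside the same for all 11566 genes. Named were the 3 highest and 3 lowest members per complex, isoform pairs, complex II, X-linked members, any member 1.5-fold apart, and up to 3 genes per other list with the largest log2 ratio. Further members stand beside them for their role, and Cyc1, Cycs, Nrf1, Tfam, Ldha and Slc2a1 and the cell type markers were named for theirs. The members and lists were chosen with earlier results of these data known. Precision is limited by the number of arrays. The steps were tested on simulated data. Alternatives covered scaling, floor, probe set choice, fold and membership. Python 3.11.15, SciPy 1.17.1 and statsmodels 0.14.6 were used.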

Additional observations from a re-analysis of the deposited data

How the results depend on the processing

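Scaling moved the complex medians most. With equal medians they were -0.226 for complex I, -0.230 for II, -0.231 for III, -0.297 for IV and -0.280 for V, and -0.243 for all members; with equal spiked controls they were 0.110, 0.107, 0.105, 0.040 and 0.057, and 0.093, which turns their sign. Quantile normalization gave -0.036 for complex I, -0.090 for IV, -0.079 for V and -0.052 for all members, and loess -0.044, -0.099, -0.087 and -0.058. Averaging probe sets gave -0.024 for complex II. Complex IV stood at -0.105 without probe sets that can match several transcripts, with the floor at the 60th percentile and with a floor of 50. With the floor at the 20th percentile, 1 member (Ndufa4l2, near background) was 2-fold apart, and at 1.5-fold in place of 2-fold, 2 were (Cox7c and Cox6a2). Restriction to a mean signal over 1000 was chosen after seeing the data. Among 24 named members, 5 of 255 values moved by more than the SD between probe sets of all genes of like brightness (0.53, 0.36 and 0.20 from the dim to the bright tertile), all 5 through the choice of probe sets: Ndufv1 (-0.234), Ndufab1 (0.473), Ndufs8 (-0.481), Sdhc (0.179) and Sdhd (0.161). Equal spiked controls moved named members by slightly less than the smallest of these SDs, but by more than the 0.15 of members alone, as for Sdhb (0.064). Signal over background limits dim members. No paired analysis was possible because each group has 1 array.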
